A study of Mus musculus with 12 samples.

Results

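The genes of the cell division cycle were examined in the organ of Corti of mice without clarin-1, without clarin-2 or without both. A list of 34 genes of DNA replication and mitosis was matched by symbol to the 55348 genes in the count tables, every one of the 34 was found, and every one passed the filter on low counts that left 19052 genes to be tested. RNA was sequenced at postnatal day 21 from 4 genotypes with 3 libraries each, namely wild-type mice, Clrn1-/- mice, Clrn2-/- mice and Clrn1-/-Clrn2-/- double mutants. The Clrn1-/- mice carry a constitutive deletion of exon 4, the Clrn2-/- mice carry a nonsense mutation, the double mutants came from crosses of these lines, and the wild-type mice were bred separately, so that breeding and genotype cannot be told apart in any comparison with wild-type. Each mutation is carried by every cell of the animal. The tissue was the dissected organ of Corti, from which, by the study's account, the stria vascularis and the modiolus had been removed. Markers of neurons, Schwann cells, and stria vascularis and melanocytes were still expressed in every library, with values given below.

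Progress through the cell cycle is driven by cyclins and their kinases. MCM helicase subunits and the clamp PCNA act while DNA is copied, cyclin B with CDK1 starts mitosis, the kinases of the Aurora, Polo and BUB families govern spindle attachment, and the anaphase-promoting complex with its activator CDC20 ends it. In the mammalian organ of Corti the hair cells and supporting cells stop dividing before birth and do not return to the cycle. The dissected tissue also holds Schwann cells, fibroblasts, endothelial cells, bone cells and blood-borne cells, some of which still divide at this age.

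Counts on genes ranged from 30008679 to 41049302 per library. Clrn1 lay between 23.8 and 28.6 CPM (counts relative to the library's total, scaled by edgeR's TMM factors) in wild-type and between 1.77 and 3.04 CPM in the 6 libraries without clarin-1, and Clrn2 lay between 1.89 and 3.24 CPM in wild-type and between 0.854 and 1.38 CPM in the 9 mutant libraries, Clrn1-/- included. The summed markers of hair cells lay between 561 and 758 CPM and those of supporting cells between 1347 and 1961 CPM, with Atoh1, a hair cell factor of early development, the 1 hair cell marker too low to test. No source states whether each library came from a separate animal, so p-values measure the spread between these libraries. In this bulk tissue, fewer cells of a type and less RNA per cell cannot be told apart.

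The promoters of many of these genes share short sequences. The tables used here held a promoter (RefSeq, GRCm38.p6, 250 bases before to 50 bases after the start of the gene) for 28 of the 34 genes, and the other 6 were Ccna2, Ccne2, Aurkb, Kif20a, Tpx2 and Foxm1. The cell cycle genes homology region, searched as TTTGAA or TTTAAA on both strands, was in 79.3% of the 29 promoters of these genes and in 27.6% of all 32851 promoters. The CCAAT box, searched as CCAAT on both strands, was in 82.8% and 37.4%, and both motifs together were in 69% and 10.7%. An E2F motif, searched on both strands as TTTCCCGC, TTTGGCGC, TTTCGCGC or TTTGCCGC, was in 13.8% and 2.26%. In 1 promoter of the list 2 of the motifs overlapped. These matches are descriptions of the letters and not shown to be binding sites. Printed here, with the motifs in capitals, are the promoters of Cdc20, Bub1b and Plk1, which had calls kept under every alternative processing. Aurkb also had such a call but had no promoter in the tables. Printed too are those of Ccne1, which fell in the double mutants, and of Mki67, the usual proliferation marker.
Cdc20: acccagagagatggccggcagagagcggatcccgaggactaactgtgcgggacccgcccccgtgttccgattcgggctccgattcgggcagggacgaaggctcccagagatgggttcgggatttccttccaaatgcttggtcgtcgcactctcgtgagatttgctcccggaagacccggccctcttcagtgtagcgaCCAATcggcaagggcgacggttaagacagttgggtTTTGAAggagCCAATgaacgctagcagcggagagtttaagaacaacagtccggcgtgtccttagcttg
Bub1b: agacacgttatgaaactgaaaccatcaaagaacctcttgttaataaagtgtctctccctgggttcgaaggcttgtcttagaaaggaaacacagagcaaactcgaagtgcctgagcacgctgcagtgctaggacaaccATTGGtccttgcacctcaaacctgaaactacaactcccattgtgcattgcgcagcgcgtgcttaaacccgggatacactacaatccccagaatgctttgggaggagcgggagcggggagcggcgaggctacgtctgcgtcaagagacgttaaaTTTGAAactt
Plk1: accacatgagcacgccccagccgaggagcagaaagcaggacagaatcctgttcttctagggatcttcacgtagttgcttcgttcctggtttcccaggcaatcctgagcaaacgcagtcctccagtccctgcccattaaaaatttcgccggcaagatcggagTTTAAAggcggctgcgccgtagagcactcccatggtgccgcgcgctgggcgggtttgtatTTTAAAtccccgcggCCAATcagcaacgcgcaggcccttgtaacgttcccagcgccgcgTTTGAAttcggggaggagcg
Ccne1: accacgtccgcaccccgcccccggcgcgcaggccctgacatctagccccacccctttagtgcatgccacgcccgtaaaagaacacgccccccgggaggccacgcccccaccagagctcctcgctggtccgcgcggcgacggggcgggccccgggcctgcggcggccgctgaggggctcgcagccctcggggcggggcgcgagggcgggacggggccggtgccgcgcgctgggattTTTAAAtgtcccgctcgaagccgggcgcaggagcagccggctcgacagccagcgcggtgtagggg
Mki67: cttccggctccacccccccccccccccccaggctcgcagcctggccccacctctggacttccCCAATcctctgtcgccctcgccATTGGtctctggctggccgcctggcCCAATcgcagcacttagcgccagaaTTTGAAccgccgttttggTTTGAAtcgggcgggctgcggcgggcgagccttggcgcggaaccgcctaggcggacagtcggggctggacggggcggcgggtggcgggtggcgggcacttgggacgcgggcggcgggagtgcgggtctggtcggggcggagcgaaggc
The Cdc20 promoter lies at chr4:118437294-118437593 on the minus strand, that of Bub1b at chr2:118597961-118598260 on the plus strand, that of Plk1 at chr7:122159185-122159484 on the plus strand, that of Ccne1 at chr7:38107441-38107740 on the minus strand and that of Mki67 at chr7:135716330-135716629 on the minus strand. A TTTGAA or TTTAAA stands in all 5 of them, and CCAAT or its complement in 4, Ccne1 being the exception. Bub1b and Plk1, which moved in opposite directions in Clrn1-/- mice, both hold the 2 motifs.

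The 10 genes called in some comparison below are all protein-coding, and their reads were counted over exons. On GRCm38 they are Cdc20 at chr4:118432901-118437352 (minus strand), Bub1b at chr2:118598211-118641591 (plus strand), Plk1 at chr7:122159439-122169873 (plus strand), Aurkb at chr11:69045647-69051664 (plus strand), Bub1 at chr2:127801122-127831865 (minus strand). The other 5 are Kif23 at chr9:61915905-61946774 (minus strand), Ccne1 at chr7:38097984-38107534 (minus strand), Ccne2 at chr4:11191351-11204779 (plus strand), Ccna2 at chr3:36564865-36572150 (minus strand) and Cenpe at chr3:135212537-135273611 (plus strand).

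Most of the genes were weakly expressed. The median of their mean levels in wild-type was 2.34 CPM, against 16.0 CPM over all genes tested, and 15 of the 34 lay under 2 CPM, compared with 26.2% of all genes tested. Per kilobase of exon (RPKM), the order in wild-type began with Pcna at 15.7 ± 0.887 (SD, n = 3), which also serves DNA repair in resting cells, and Anln at 6.19 ± 1.20, which encodes the cytokinesis scaffold anillin. Ccne1 at 2.82 ± 0.484 RPKM and Cdc20 at 2.71 ± 0.255 RPKM came next and did not differ beyond their spread. The lowest were Cenpf at 0.0923 ± 0.0365 RPKM and Bub1 at 0.0825 ± 0.0268 RPKM, again within each other's spread. Bub1 had between 10 and 32 counts in a library and Ccnb1 between 11 and 43, so counting error limits both.

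**Figure D1:**
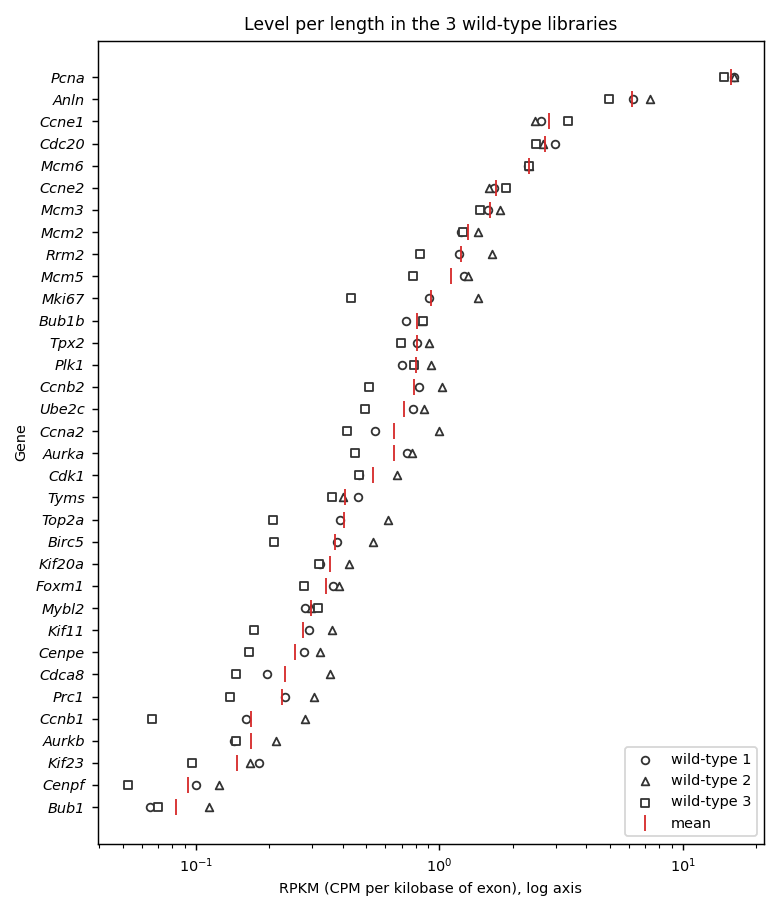
Level per kilobase of exon (RPKM, log axis) of each of the 34 genes in the 3 wild-type libraries (open symbols) with their mean (red bar). Pcna and Anln lie apart at the top, and for most other genes wild-type 3 is the lowest point and wild-type 2 the highest.

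The wild-type libraries differed from each other in these genes by a larger median coefficient of variation than the libraries of any mutant did. The classical proliferation markers had among the widest spreads. Mki67, which coats mitotic chromosomes, was at 9.07, 14.5 and 4.38 CPM in the 3 wild-type libraries, in the order of the replicate numbers. Top2a, the topoisomerase of dividing cells, was at 3.51, 5.53 and 1.87 CPM. Ccnb1, or cyclin B1, was at 0.674, 1.18 and 0.278 CPM. In all 3 genes wild-type 2 was high and wild-type 3 low. Of the 34 genes, 25 were highest in wild-type 2, 25 were lowest in wild-type 3 and 21 were both, a pattern held by 16.9% of all genes tested. The median coefficient of variation of the 34 genes was 25.1% in wild-type, 11.1% in Clrn1-/-, 13.7% in Clrn2-/- mice and 13.8% in the double mutants, where counting alone gives between 10.7% and 11.4%. Over all genes tested the medians were 7.06%, 6.23%, 7.15% and 5.51%. Comparisons with wild-type are therefore given with and without wild-type 3 where that library decides a call.

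The double mutants also had an uneven set. The median deviation of the 34 genes from the wild-type mean, on the log2 scale, was 0.42 in replicate 1, 0.17 in replicate 2 and -0.06 in replicate 3 of the double mutants, and 0.04, 0.27 and -0.30 in the wild-type libraries. The 6 libraries of the single mutants lay between -0.14 and 0.09.

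**Figure D2:**
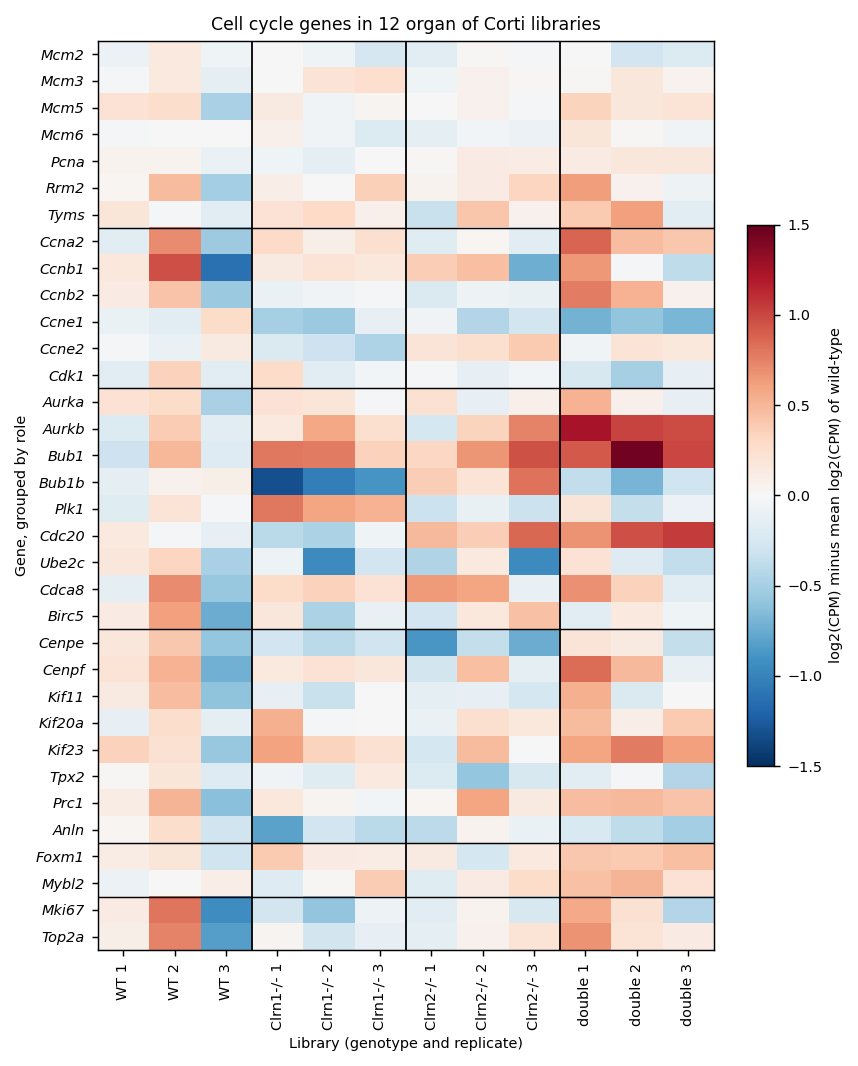
Deviation of each of the 34 genes from the wild-type mean (log2 CPM, colour scale cut at 1.5 in both directions) in each of the 12 libraries, with genes grouped by role and libraries by genotype. Wild-type 2 is mostly red and wild-type 3 mostly blue, and the blue Bub1b cells of Clrn1-/- and the red Aurkb, Bub1 and Cdc20 cells of the double mutants (double) stand out.

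The levels of the 34 genes were then compared between genotypes with edgeR's quasi-likelihood test, and calls needed both an adjusted p no larger than 0.05 and a 1.5-fold difference or more. In Clrn1-/- mice 1 gene was called higher than in wild-type, Plk1, and 1 lower, Bub1b, where 3.52% of all genes tested were called higher and 3.7% lower. In Clrn2-/- mice 1 was called higher, Cdc20, and 0 lower, against 1.24% and 1.42% of all genes. Beside the 0, limma-voom and DESeq2 also called 0 lower, and 2 of the 34 genes were lower at an unadjusted p under 0.05. Cenpe was called lower in Clrn2-/- mice in 3 of 19 alternatives. In the double mutants 4 were called higher, Cdc20, Bub1, Aurkb and Kif23, and 1 lower, Ccne1, against 5.88% and 4.02% of all genes. Taken in either direction, the called share of the 34 genes was 5.88%, 2.94% and 14.7% in the 3 mutants, beside 7.22%, 2.66% and 9.9% of all genes. The 3 comparisons share their wild-type libraries. The libraries of a mutant did not overlap with those of wild-type for 3, 5 and 9 of the 34 genes, compared with 40.2%, 29% and 48.2% of all genes.

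Shifts of the whole list were small. The median log2 fold change of the 34 genes was -0.02 in Clrn1-/-, -0.01 in Clrn2-/- and 0.15 in the double mutants, beside medians between -0.01 and 0.01 for all genes tested, and 16, 17 and 23 of the 34 were above 0. Changes within 0.5 on the log2 scale made up 31, 31 and 29 of the 34. The median half-width of the 95% intervals was 0.45, so changes smaller than this were mostly not detectable at this depth.

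**Figure D3:**
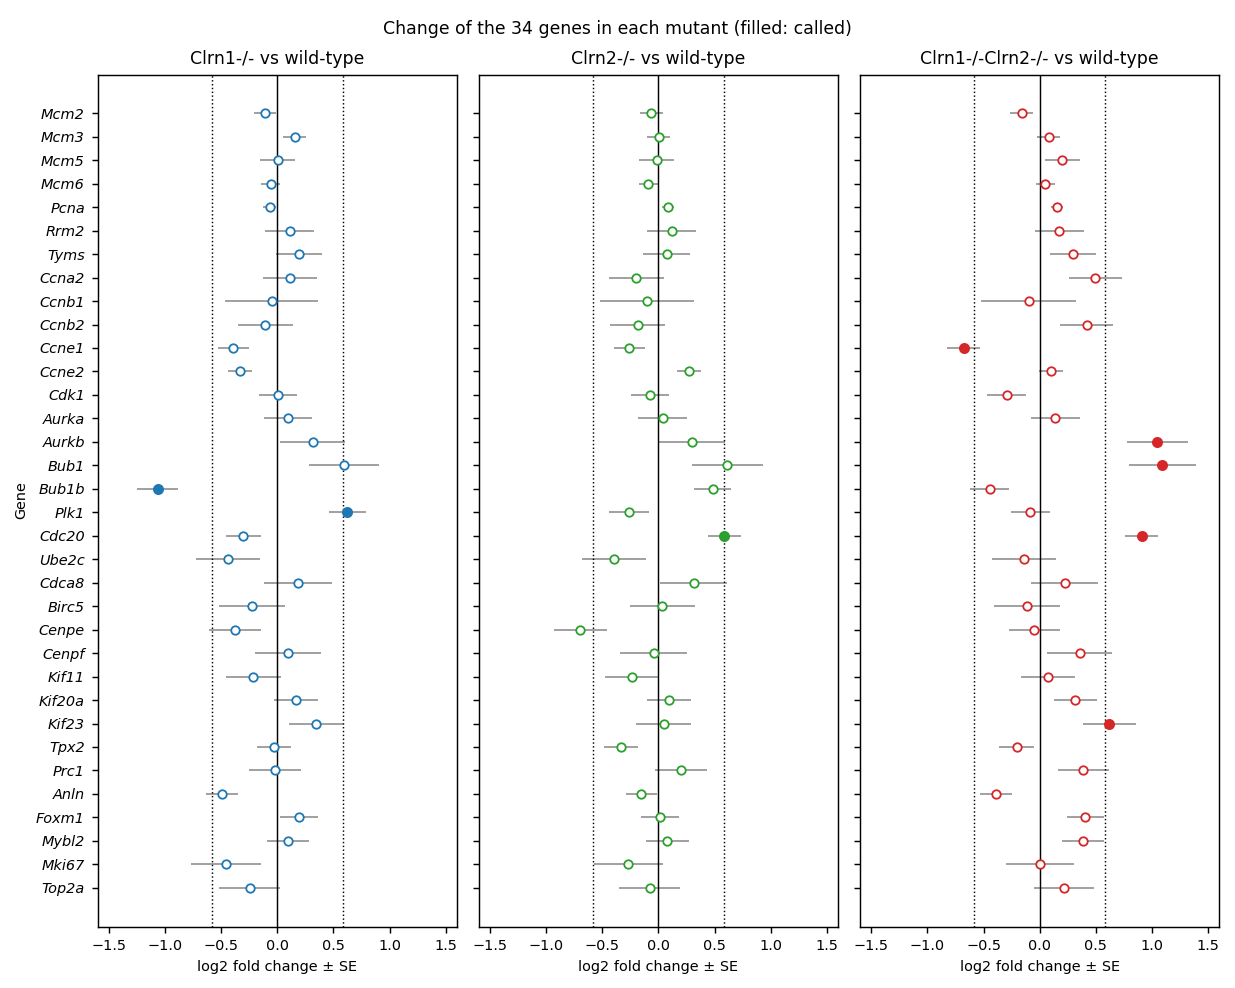
Log2 fold change of each of the 34 genes against wild-type (points, bars are 1 SE) in the 3 mutants, with dotted lines at 1.5-fold in both directions and filled points for called genes. Filled points are Bub1b and Plk1 in Clrn1-/-, Cdc20 in Clrn2-/-, and Cdc20, Bub1, Aurkb, Kif23 and Ccne1 in Clrn1-/-Clrn2-/- mice.

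None of the 7 replication genes (Mcm2, Mcm3, Mcm5, Mcm6, Pcna, Rrm2 and Tyms) was called in any comparison by edgeR, limma-voom or DESeq2. At an unadjusted p under 0.05 in edgeR, 1 was higher in the double mutants than in wild-type, Pcna. At the same threshold 1 was lower in Clrn1-/- than in Clrn2-/- mice and 1 was higher in the double mutants than in Clrn1-/- mice. The log2 fold changes of the 7 genes against wild-type lay between -0.16 for Mcm2 and 0.30 for Tyms, both in the double mutants. Mcm2, a subunit of the replicative helicase, was at 8.54, 10.1 and 8.68 CPM in wild-type, 9.05, 8.67 and 7.61 CPM in Clrn1-/-, 8.07, 9.15 and 8.88 CPM in Clrn2-/-, and 9.11, 7.46 and 7.86 CPM in the double mutants, and all 4 groups overlapped. Pcna was at 39.0, 39.0 and 35.3 CPM in wild-type, 36.2, 34.2 and 37.6 CPM in Clrn1-/-, 38.1, 41.2 and 40.7 CPM in Clrn2-/-, and 41.01, 42.4 and 42.3 CPM in the double mutants, whose 3 libraries all lay above those of wild-type. Its log2 fold change in the double mutants was 0.15 (SE 0.05, edgeR adjusted p = 0.0369), below the fold minimum. Pcna also has 2 processed pseudogenes and Tyms 1, and reads of such copies can be split between them.

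The 6 genes of cyclins and Cdk1 gave 1 call against wild-type, and the 2 genes of cyclin E followed different patterns. Cyclin E with CDK2 takes cells from G1 into S phase. Ccne1 was at 6.94, 6.602 and 8.98 CPM in wild-type, 5.28, 5.05 and 6.86 CPM in Clrn1-/-, 7.18, 5.48 and 6.15 CPM in Clrn2-/-, and 4.56, 4.93 and 4.62 CPM in the double mutants. The double mutants had the lowest values, with no overlap with any other genotype. Against wild-type Ccne1 fell by 0.68 on the log2 scale in the double mutants (SE 0.14, edgeR adjusted p = 0.00156). Without wild-type 3 the log2 fold change was -0.54 and under the fold minimum, with an adjusted p of 0.00674. In Clrn1-/- the log2 fold change was -0.39 (edgeR adjusted p = 0.0519) and in Clrn2-/- it was -0.26 (edgeR adjusted p = 0.25).

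Ccne2 was at 5.84, 5.56 and 6.58 CPM in wild-type, 5.16, 4.84 and 4.34 CPM in Clrn1-/-, 6.83, 7.04 and 7.84 CPM in Clrn2-/-, and 5.77, 6.90 and 6.65 CPM in the double mutants. The single mutants lay on opposite sides of wild-type without overlap. Between them Ccne2 differed by a log2 fold change of -0.60 in Clrn1-/- relative to Clrn2-/- (SE 0.11, edgeR adjusted p = 0.00119), while against wild-type neither change reached 1.5-fold (-0.33 and 0.27). In counts taken without regard to strand, the difference between the single mutants was -0.30. The span of Ints8, on the opposite strand, overlaps exons of Ccne2.

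The other cyclins gave no call against wild-type. Ccna2, the cyclin of S phase and G2, was at 2.22, 4.05 and 1.70 CPM in wild-type, 3.04, 2.64 and 2.94 CPM in Clrn1-/-, 2.18, 2.54 and 2.22 CPM in Clrn2-/-, and 4.56, 3.42 and 3.27 CPM in the double mutants. The double mutants lay above both single mutants, and the wild-type libraries spanned most of the range. Ccna2 was higher in the double mutants than in Clrn2-/- mice (log2 fold change 0.69, SE 0.24, edgeR adjusted p = 0.0434), but 10 of 19 alternatives lost the call, with an adjusted p of up to 0.178. The gene lies on chromosome 3, 22.3 megabases from Clrn1, so that the mutation and DNA linked to it cannot be told apart. Ccnb1 was at 0.664, 0.699 and 0.675 CPM in Clrn1-/-, 0.780, 0.826 and 0.365 CPM in Clrn2-/-, and 0.951, 0.594 and 0.464 CPM in the double mutants, all inside the wild-type range, with log2 fold changes between -0.10 and -0.05. Ccnb2, or cyclin B2, had log2 fold changes between -0.18 and 0.42. Cdk1, the mitotic kinase, was at 2.30, 3.29 and 2.30 CPM in wild-type, 3.13, 2.33 and 2.52 CPM in Clrn1-/-, 2.56, 2.39 and 2.53 CPM in Clrn2-/-, and 2.20, 1.84 and 2.37 CPM in the double mutants. Each mutant overlapped with wild-type in Cdk1, and its log2 fold changes were 0.01, -0.08 and -0.30.

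The 9 genes of mitotic kinases, the spindle checkpoint and the anaphase-promoting complex held most of the calls. Bub1b encodes BUBR1, the checkpoint kinase that restrains CDC20 until chromosomes are attached. It was at 3.12, 3.62 and 3.67 CPM in wild-type, 1.39, 1.68 and 1.87 CPM in Clrn1-/-, 4.47, 3.98 and 6.10 CPM in Clrn2-/-, and 2.69, 2.14 and 2.81 CPM in the double mutants. The 4 genotypes did not overlap, with Clrn1-/- lowest, then the double mutants, wild-type and Clrn2-/-. In Clrn1-/- mice Bub1b fell to 0.478 of the wild-type level (log2 fold change -1.06, SE 0.18, edgeR adjusted p = 4.54e-04), and the call was kept in all 19 alternatives, which included the replicate number as a block. The changes in Clrn2-/- (0.48, edgeR adjusted p = 0.0597) and in the double mutants (-0.44, edgeR adjusted p = 0.0559) missed the threshold. Directly compared, Bub1b was lower in Clrn1-/- than in Clrn2-/- mice (log2 fold change -1.55, SE 0.18, edgeR adjusted p = 2.07e-05) and lower in the double mutants than in Clrn2-/- mice (-0.93, SE 0.17, edgeR adjusted p = 8.29e-04), and both calls were kept in all 19 alternatives. It was higher in the double mutants than in Clrn1-/- mice (0.62, SE 0.19, edgeR adjusted p = 0.0202), a call lost in 4 of 19.

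Cdc20, the activator of the anaphase-promoting complex that BUBR1 restrains, was at 5.59, 4.96 and 4.66 CPM in wild-type, 3.83, 3.65 and 4.83 CPM in Clrn1-/-, 7.07, 6.52 and 9.19 CPM in Clrn2-/-, and 8.03, 9.90 and 10.5 CPM in the double mutants. Every library without clarin-2 lay above every library with it. Cdc20 rose 1.88-fold in the double mutants (log2 fold change 0.91, SE 0.14, edgeR adjusted p = 1.18e-04), in all 19 alternatives, and 1.50-fold in Clrn2-/- mice (0.59, SE 0.15, edgeR adjusted p = 0.0133). The latter sits at the fold minimum and was lost in 5 of 19 alternatives, among them limma-voom (0.58) and those without wild-type 2 (0.58), without wild-type 3 (0.53) and without Clrn2-/- replicate 3 (0.43). In Clrn1-/- mice the change was -0.30 (edgeR adjusted p = 0.167). Relative to Clrn1-/- mice, Cdc20 was higher in the double mutants by 1.21 on the log2 scale (SE 0.15, edgeR adjusted p = 1.54e-05), and it was lower in Clrn1-/- than in Clrn2-/- mice (-0.89, SE 0.15, edgeR adjusted p = 7.12e-04). Cdc20 and its neighbour Elovl1 overlap by 53 bases on opposite strands. Ube2c, the ubiquitin-conjugating enzyme of the same complex, was not called in any comparison, with log2 fold changes of -0.44, -0.40 and -0.14 against wild-type.

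Plk1, the Polo kinase of mitotic entry and spindle assembly, was at 1.55, 2.03 and 1.72 CPM in wild-type, 3.04, 2.64 and 2.52 CPM in Clrn1-/-, 1.40, 1.62 and 1.41 CPM in Clrn2-/-, and 2.00, 1.37 and 1.65 CPM in the double mutants. The 3 Clrn1-/- libraries lay above all 9 others. Plk1 rose 1.54-fold over wild-type in Clrn1-/- mice (log2 fold change 0.63, SE 0.17, edgeR adjusted p = 0.0111). The call was lost without wild-type 1 (0.54), without Clrn1-/- replicate 1 (0.55) and in unstranded counts (0.52). It was 1.85-fold higher in Clrn1-/- than in Clrn2-/- mice (0.89, SE 0.17, edgeR adjusted p = 0.00208) and lower in the double mutants than in Clrn1-/- mice (-0.71, SE 0.17, edgeR adjusted p = 0.00453), both in all 19 alternatives.

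Aurkb and Bub1 were higher in the double mutants, at low levels. Aurkb, the kinase of the chromosomal passenger complex, was at 0.421, 0.630 and 0.430 CPM in wild-type, 0.538, 0.724 and 0.571 CPM in Clrn1-/-, 0.403, 0.612 and 0.815 CPM in Clrn2-/-, and 1.15, 0.981 and 0.954 CPM in the double mutants, which lay above all 9 other libraries. It rose 2.07-fold over wild-type in the double mutants (log2 fold change 1.05, SE 0.27, edgeR adjusted p = 0.00639), in all 19 alternatives. The calls of Aurkb against Clrn1-/- (0.73, edgeR adjusted p = 0.0467) and Clrn2-/- mice (0.75, edgeR adjusted p = 0.0479) were lost in 13 and 14 of 19. Aurka, the spindle pole kinase, had log2 fold changes between 0.04 and 0.14. The Aurkb partners Birc5 and Cdca8 were not called, and in the double mutants had log2 fold changes of -0.12 and 0.22.

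Bub1, the kinase that recruits the checkpoint to kinetochores, was at 0.281, 0.493 and 0.304 CPM in wild-type, 0.601, 0.595 and 0.442 CPM in Clrn1-/-, 0.430, 0.551 and 0.674 CPM in Clrn2-/-, and 0.656, 0.951 and 0.696 CPM in the double mutants. The double mutants did not overlap with wild-type, whereas each single mutant did. Bub1 rose 2.13-fold over wild-type in the double mutants (log2 fold change 1.09, SE 0.30, edgeR adjusted p = 0.00883), and without replicate 2 of the double mutants the adjusted p was 0.0541. In the single mutants the changes were 0.60 and 0.61 with adjusted p-values of 0.177 and 0.219 (edgeR).

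**Figure D4:**
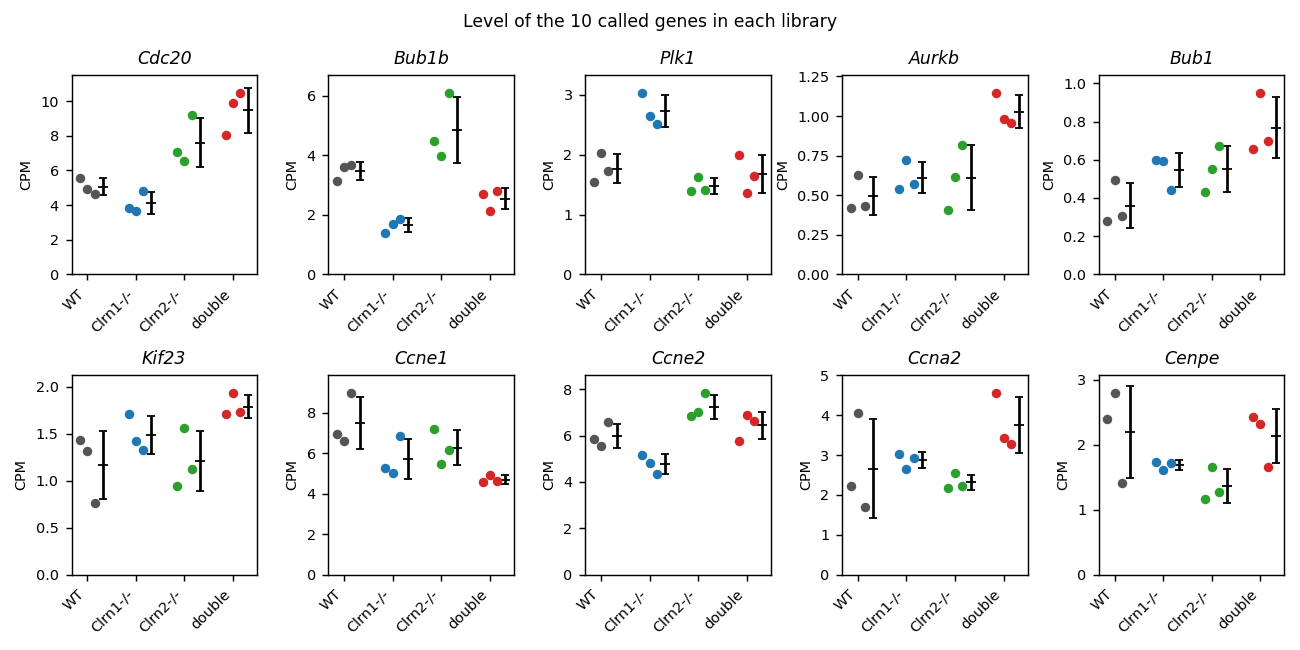
CPM in each library (points, 3 per genotype) with mean ± SD (black bars) for the 10 genes called in at least 1 comparison or in the interaction; WT stands for wild-type and double for Clrn1-/-Clrn2-/- mice. Bub1b separates the 4 genotypes, Cdc20 is higher in all 6 libraries without clarin-2, and Plk1 is highest in the 3 Clrn1-/- libraries.

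Of the 8 spindle, kinetochore and cytokinesis genes, 1 was called against wild-type. Kif23, a kinesin of the central spindle, was at 1.43, 1.31 and 0.759 CPM in wild-type, 1.71, 1.42 and 1.33 CPM in Clrn1-/-, 0.941, 1.56 and 1.12 CPM in Clrn2-/-, and 1.71, 1.93 and 1.73 CPM in the double mutants. The double mutants lay above wild-type and Clrn2-/- mice and overlapped with Clrn1-/- mice. Its rise in the double mutants (log2 fold change 0.62, SE 0.23, edgeR adjusted p = 0.0483) was lost in 11 of 19 alternatives, and without wild-type 3 the change was 0.37 with an adjusted p of 0.219. Anln was at 56.7, 66.7 and 44.99 CPM in wild-type, 31.9, 45.5 and 41.8 CPM in Clrn1-/-, 42.3, 57.5 and 51.8 CPM in Clrn2-/-, and 47.4, 42.5 and 38.9 CPM in the double mutants, so that every mutant overlapped with wild-type. Its log2 fold changes of -0.49 in Clrn1-/- and -0.39 in the double mutants had edgeR adjusted p-values of 0.0177 and 0.0432 but did not reach 1.5-fold. Without wild-type 3, Anln was called lower in Clrn1-/- mice, and so it was without Clrn1-/- replicate 2. The other 5 genes of the group, Cenpf, Kif11, Kif20a, Prc1 and Tpx2, were called in no comparison and had log2 fold changes between -0.33 for Tpx2 in Clrn2-/- mice and 0.39 for Prc1 in the double mutants.

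Cenpe, the kinesin that holds kinetochores to microtubules, was at 2.39, 2.79 and 1.42 CPM in wild-type, 1.74, 1.604 and 1.71 CPM in Clrn1-/-, 1.16, 1.65 and 1.27 CPM in Clrn2-/-, and 2.43, 2.32 and 1.65 CPM in the double mutants. Both single mutants had lower means than wild-type and the double mutants, with overlap. It was the 1 gene of the 34 with a called interaction of the 2 mutations, that is, a change in the double mutants that differed from the sum of the changes in the single mutants on the log2 scale (1.02, SE 0.33, edgeR adjusted p = 0.0449), where 5.5% of all genes tested were called, 3.58% with a positive and 1.92% with a negative interaction. The interaction of Cenpe was lost in 11 of 18 alternatives, and no comparison with wild-type called the gene (-0.38, -0.70 and -0.05). Without wild-type 3, which had the lowest wild-type level, Cenpe was called lower in Clrn2-/- mice (-0.94, edgeR adjusted p = 0.0059) and in Clrn1-/- mice. Cenpe lies 76.3 megabases from Clrn1 on chromosome 3.

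The transcription factors Foxm1 and Mybl2, which drive the genes of G2 and mitosis, were not called. In the double mutants all 3 libraries lay above wild-type in both genes, with log2 fold changes of 0.41 (edgeR adjusted p = 0.0652) and 0.39 (edgeR adjusted p = 0.119). Exons of Foxm1 overlap the spans of 2 other genes on the same strand. Reads there could have been left uncounted if exons of these genes overlap too, which was not examined. Mki67 was at 6.87, 5.54 and 7.90 CPM in Clrn1-/-, 7.45, 8.63 and 7.05 CPM in Clrn2-/-, and 12.3, 9.72 and 6.11 CPM in the double mutants. All 9 mutant libraries fell inside the range of the 3 wild-type libraries, and the 95% intervals of the log2 fold changes reached from -1.12 to 0.21, from -0.93 to 0.39 and from -0.65 to 0.65. Top2a was at 3.42, 2.74 and 3.04 CPM in Clrn1-/-, 3.01, 3.46 and 3.82 CPM in Clrn2-/-, and 5.28, 3.80 and 3.61 CPM in the double mutants, again inside the wild-type range. Without wild-type 3, Mki67 was called lower in Clrn1-/- mice (-0.80, edgeR adjusted p = 0.017). In 1 of 19 alternatives Top2a was called higher in the double mutants, where its largest change was 0.65. For both genes the direction against wild-type turned in at least 1 mutant when wild-type 2 or wild-type 3 was left out.

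The mutants were also set against each other, where the wild-type libraries enter through the scaling and the shared estimate of the spread alone. Between the single mutants 4 of the 34 genes differed, Bub1b, Ccne2, Cdc20 and Plk1, or 11.8%, where 4.73% of all genes tested were called (2.4% higher and 2.34% lower in Clrn1-/- mice). Between the double mutants and Clrn1-/- mice 4 differed, Cdc20, Plk1, Bub1b and Aurkb, where 7.23% of all genes were called (4.62% higher and 2.61% lower in the double mutants). Between the double mutants and Clrn2-/- mice 3 differed, Bub1b, Ccna2 and Aurkb, where 5.1% of all genes were called (3.67% higher and 1.43% lower in the double mutants). The libraries did not overlap for 7, 13 and 9 of the 34 genes in these 3 comparisons, compared with 34.6%, 45.9% and 42.4% of all genes. The double mutants had 27 of the 34 genes above 0 relative to Clrn1-/- mice, at a median of 0.22 on the log2 scale, beside 51.4% of all genes and a median of 0.01. Relative to Clrn2-/- mice, 26 were above 0, with a median of 0.20. In all, 10 of the 34 genes were called in some comparison or in the interaction and 24 in none.

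Other genes of the cell cycle were examined as 6 lists with 150 genes, of which 149 were tested. Against wild-type, 3 were called higher and 1 lower in Clrn1-/-, 4 and 0 in Clrn2-/-, and 8 and 1 in the double mutants, or 2.68%, 2.68% and 6.04% in either direction, below or close to the shares of all genes given above. Among the 44 other replication genes, Hells, a chromatin remodeller, rose in all 3 mutants, from 3.28 ± 0.454 CPM (SD, n = 3) in wild-type to 6.35 ± 0.549, 5.23 ± 0.257 and 5.74 ± 0.467 CPM (log2 fold changes 0.95, 0.67 and 0.81, edgeR adjusted p of 2.84e-05, 0.00149 and 6.54e-05). Gins1, a helicase cofactor, rose in Clrn2-/- (0.76) and in the double mutants (0.66), and Pole, the catalytic subunit of DNA polymerase epsilon, rose in the double mutants from 5.45 ± 0.808 to 11.7 ± 0.0917 CPM (1.096, edgeR adjusted p = 7.32e-07). Of 50 other mitosis genes, the kinetochore gene Nuf2 fell by 1.00 on the log2 scale in Clrn1-/- mice and the cohesin protector Sgo2a fell by 0.77 in the double mutants. Between mutants, Ncaph of the condensin complex was higher in Clrn1-/- than in Clrn2-/- mice (0.68), Nuf2 (0.84), Chaf1b (0.85), E2f5, Pole and Plk2 were higher and Sgo2a lower (-0.66) in the double mutants than in Clrn1-/- mice, and Pole was higher (0.73) and Sgo2a lower (-0.63) in the double mutants than in Clrn2-/- mice.

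The genes that hold cells in G1 or take them out of it changed in few cases. Of the 14 G1 cyclins and kinases, Cdk2 rose in Clrn1-/- mice (0.61, edgeR adjusted p = 3.02e-05) and Ccnd1, or cyclin D1, rose in the double mutants (0.71, edgeR adjusted p = 6.76e-05). Ccnd1 was at 18.9, 14.96 and 12.9 CPM in wild-type, 22.5, 20.3 and 19.9 CPM in Clrn1-/-, 17.4, 19.1 and 17.7 CPM in Clrn2-/-, and 27.0, 25.5 and 23.7 CPM in the double mutants, which lay above all other libraries. Of the 19 genes of RB, E2F and MuvB, E2f5 rose in the double mutants (0.82, edgeR adjusted p = 2.21e-07). The 6 inhibitors of cyclin-dependent kinases that could be tested gave no call, since the changes of Cdkn1a and Cdkn1b did not reach 1.5-fold. Cdkn1a, which encodes p21, was at 131, 133 and 134 CPM in wild-type, 196, 188 and 165 CPM in Clrn1-/-, 153, 154 and 142 CPM in Clrn2-/-, and 163, 180.2 and 181 CPM in the double mutants, and every mutant library lay above every wild-type library. Its log2 fold changes were 0.46, 0.17 and 0.40 (edgeR adjusted p of 3.02e-05, 0.058 and 5.42e-05). Cdkn1b, or p27, which keeps supporting cells out of the cycle, was at 430.2, 411 and 472 CPM in wild-type, 433, 433 and 449 CPM in Clrn1-/-, 564, 564 and 590.2 CPM in Clrn2-/-, and 466, 499.8 and 491 CPM in the double mutants. It was highest in the 3 Clrn2-/- libraries (0.39 against wild-type, edgeR adjusted p = 1.34e-04). Of 16 targets of p53, Bbc3 rose in all 3 mutants (0.67, 0.90 and 0.73), Gadd45a in Clrn2-/- (0.81) and in the double mutants (0.95), and Plk2 in the double mutants (0.78).

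Markers of other cells that may divide or be carried along in the dissection moved with some of these genes. The summed level of the 34 genes without Pcna and Anln was 103, 123 and 87.4 CPM in wild-type, 100.2, 92.1 and 98.3 CPM in Clrn1-/-, 98.8, 106 and 106 CPM in Clrn2-/-, and 122, 112 and 103 CPM in the double mutants. In wild-type the low replicate 3 was also lowest for 12 neutrophil markers (29.6, 29.1 and 11.99 CPM) and 7 osteoclast markers (18.1, 26.8 and 15.1 CPM). Of the osteoclast markers, 3 could be tested. Replicate 3 was lowest too for 12 macrophage markers (187, 202 and 152 CPM) and 10 markers of stria vascularis and melanocytes (609, 673 and 423 CPM). The sums of red blood cell precursor, fibroblast, Schwann cell and endothelial markers were lowest there as well. Those of lymphocytes, osteoblasts, skeletal muscle, neurons, hair cells and supporting cells were not. In the double mutants the high replicate 1 was highest for the neutrophil markers (46.7, 21.0 and 21.1 CPM), the osteoclast markers (28.2, 20.1 and 19.4 CPM) and the macrophage markers (293, 270 and 250.2 CPM). Replicate 1 was also highest for the markers of red blood cell precursors, skeletal muscle, and stria vascularis and melanocytes, and not for the remaining lists.

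Between genotypes, the calls of the marker lists can be read beside the shares of all genes called higher and lower against wild-type, 3.52% and 3.7% in Clrn1-/-, 1.24% and 1.42% in Clrn2-/-, and 5.88% and 4.02% in the double mutants. Of 11 neutrophil markers tested, 6 were called higher in Clrn1-/- mice, and of 12 macrophage markers 3, 1 and 7 were called higher in Clrn1-/-, Clrn2-/- and the double mutants. Of 11 markers of red blood cell precursors, 7, 5 and 3 were called lower and 1 was called higher in the double mutants. Their sum lay between 1324 and 1677 CPM in wild-type and between 680.3 and 1118 CPM in the mutants.

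The summed fibroblast markers lay between 1596 and 1830 CPM in wild-type, between 2049 and 2256 CPM in Clrn1-/-, between 1792 and 2050.2 CPM in Clrn2-/- and between 2358 and 2532 CPM in the double mutants. The libraries of Clrn1-/- mice and of the double mutants did not overlap with wild-type in this sum, and in both 3 of 8 fibroblast markers were called higher and 1 lower. The summed supporting cell markers lay between 1908 and 1961 CPM in the double mutants and between 1347 and 1514 CPM in the other 9 libraries, while of the 10 markers 2 were called higher and 1 lower in the double mutants and 1 higher in Clrn2-/- mice. For hair cell markers the counts of 11 were 1 higher and 2 lower in Clrn1-/-, 3 higher in Clrn2-/-, and 3 higher and 1 lower in the double mutants.

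The summed neuronal markers lay between 13656 and 15038 CPM in wild-type, between 11760 and 12313 CPM in Clrn1-/- and between 11640 and 13642 CPM in Clrn2-/- mice. In the double mutants they lay between 9020 and 9269 CPM. There 4 of 10 were called lower and 1 higher, and 1 was called higher in Clrn2-/- mice. Of the 10 markers of stria vascularis and melanocytes, 3 were called higher and 3 lower in the double mutants, 2 higher in Clrn1-/- and 1 higher in Clrn2-/- mice. Of the 9 lymphocyte markers tested, 1 was called higher in Clrn1-/- mice and 1 in the double mutants, and of 10 osteoblast markers 1 was called higher in Clrn1-/- mice, and 1 higher and 1 lower in the double mutants. The sum of skeletal muscle markers lay between 38.99 and 45.1 CPM in Clrn1-/- mice and between 4.34 and 13.7 CPM in the other 9 libraries, and of 7 tested 1 was called higher in Clrn1-/- mice and 2 lower in the double mutants. The summed Schwann cell markers lay between 19250 and 21203 CPM and those of endothelial cells and pericytes between 463 and 556 CPM over all 12 libraries. At or near 0 were the defining osteoclast markers Calcr, Ocstamp, Dcstamp and Atp6v0d2, the neutrophil precursor marker Ctsg, and the lymphocyte markers Igll1, Cd3d and Cd3g, all too low to test. The part of these cells in the levels of the cell cycle genes was not tested.

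**Figure D5:**
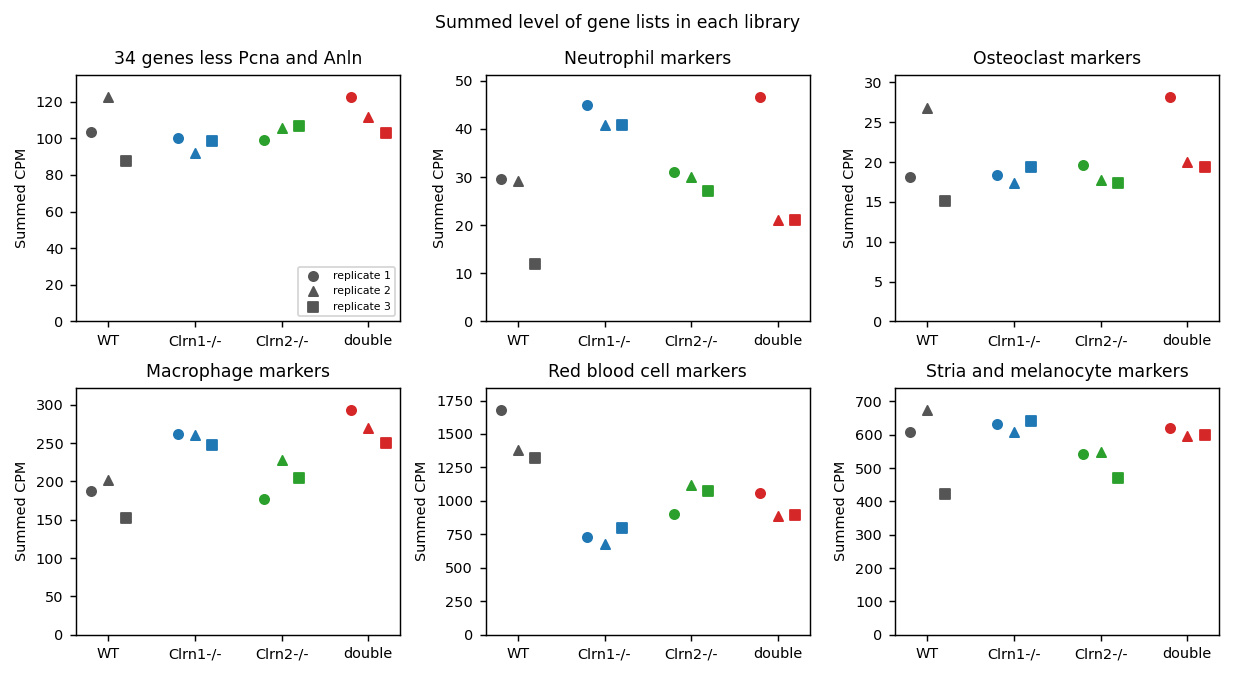
Summed CPM in each library (symbols give the replicate) of the 34 cell cycle genes without Pcna and Anln and of the markers of neutrophils, osteoclasts, macrophages, red blood cell precursors, and stria vascularis and melanocytes, by genotype; WT stands for wild-type and double for Clrn1-/-Clrn2-/- mice. Wild-type 3 is low for the cell cycle genes (87.4 CPM) and for the neutrophil markers (11.99 CPM), and replicate 1 of the double mutants is high for both (122 and 46.7 CPM).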

How the data were processed

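Organs of Corti were dissected at postnatal day 21, and poly-A RNA was sequenced from 12 libraries, 3 for each of 4 genotypes, as strand-specific paired reads of 100 bases. The deposited files hold whole-number counts of reads per gene, which the authors made with STAR on GRCm38.p6 and Gencode annotation; the version of STAR is not given in the sources used here. The counts of the reverse strand were used, since 95.2% to 95.6% of reads that fell on genes did so there, and the lines that name no gene held 13.5% to 15.8% of the reads and were left out.

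Counts were tested with edgeR 4.0.16 in R 4.3.3 (quasi-likelihood test, TMM, filterByExpr with a minimum count of 10, genotype alone, all 12 libraries in 1 fit), with Benjamini-Hochberg adjustment over 19052 genes. Alternatives were limma-voom (limma 3.58.1), DESeq2 1.42.0, library size alone, no filter, 2 genotypes alone, a replicate block, counts without regard to strand, calls with no fold minimum and the omission of each library in turn. CPM used TMM-scaled library sizes, and RPKM used exon lengths from a Gencode annotation of GRCm38 other than the authors' own. Counts were also simulated for the double mutants against wild-type over 18779 genes. There, 74 of 100 genes changed by a log2 fold of 1 and 97 of 100 changed by 2 were recovered. In this simulation 3 unchanged genes were called. Recovery among the listed cell cycle genes alone was not tested. Their median wild-type level was 2.34 CPM, against 16.0 CPM over all genes tested. Their median coefficient of variation in wild-type was 25.1%, against 7.06%, so the simulated recovery cannot be carried over to them.

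The replicate numbers of the labels were checked over 12452 genes of at least 5 CPM: deviations of same-numbered wild-type and Clrn1-/- libraries correlated at 0.29, 0.13 and 0.10, and 7 of all 18 such pairs of genotypes exceeded 0.1. Over all 18 pairs the correlation lay between -0.27 and 0.30, and libraries of differing number were not compared. The 34 genes and all lists were chosen with earlier results of these data known. Values in every library are given for genes called in some comparison, for Mki67, Top2a, Cdk1, Ccnb1, Pcna and Mcm2, and for the largest change in each direction, as well as for Anln. Of the other lists, called genes, Cdkn1a, Cdkn1b and Ccnd1 are named.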

Additional observations from a re-analysis of the deposited data

Results flagged for a closer look

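The interaction of the 2 mutations was called for 1 of the 34 genes and for 4 genes of the other cell cycle lists (edgeR). It tests whether the change in the double mutants differs from the sum of the changes in the single mutants on the log2 scale. The called shares were 2.94% of the 34 genes and 2.68% of the 149 genes tested in the other lists, below the 5.5% of all genes tested. Cenpe had an interaction of 1.02 (adjusted p = 0.0449), with means of 2.20, 1.69, 1.36 and 2.13 CPM in wild-type, Clrn1-/-, Clrn2-/- and double mutant mice. In the other 4 the double mutants were lower than the sum gives. Zmat3, a p53 target that binds RNA, had an interaction of -0.60 (adjusted p = 1.7e-04) with means of 94.5, 112, 109 and 85.3 CPM. Bbc3, a p53 target that promotes apoptosis, had an interaction of -0.85 (adjusted p = 0.0049), and rose in each mutant by itself. Gins2, a helicase cofactor, had an interaction of -0.72 (adjusted p = 0.0201) with means of 1.94, 2.49, 2.73 and 2.13 CPM. Hells had an interaction of -0.81 (adjusted p = 0.00314), its level in the double mutants lying between those of the single mutants.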

How the results depend on the processing

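Calls that were kept in all 19 alternatives were those of Bub1b (Clrn1-/- against wild-type, Clrn1-/- against Clrn2-/-, double against Clrn2-/-), Cdc20 (double against wild-type, Clrn1-/- against Clrn2-/-, double against Clrn1-/-), Aurkb (double against wild-type) and Plk1 (Clrn1-/- against Clrn2-/-, double against Clrn1-/-). Counts of the 34 genes changed as follows, and the cause was not tested. Genes higher in Clrn1-/- mice went from 1 to 0 with unstranded counts, and genes lower there from 1 to 3 with no fold minimum. Genes higher in Clrn2-/- mice went from 1 to 0 with limma-voom and with the replicate block (Cdc20, at 0.57 with an adjusted p of 0.0103 in the blocked edgeR fit, under the fold minimum), and genes lower there from 0 to 1 with no filter and with the replicate block (Cenpe). Genes lower in the double mutants went from 1 to 2 with no fold minimum. Double mutants against Clrn1-/- mice gave 4 genes, and 6 with no fold minimum, and against Clrn2-/- mice 3, and 2 with DESeq2. The interaction gave 1 gene, and 0 with limma-voom, 2 with DESeq2, 0 with library size alone, 3 with no filter, 2 with the replicate block and 2 with unstranded counts. The block moved no other count by more than 1.5 times.

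With 1 library left out at a time, genes higher in Clrn1-/- mice ranged from 0 to 1 (0 without wild-type 1 or Clrn1-/- replicate 1), genes lower there from 1 to 4 (4 without wild-type 3, 2 without Clrn1-/- replicate 2), genes higher in Clrn2-/- mice from 0 to 2 (0 without wild-type 2, wild-type 3 or Clrn2-/- replicate 3, and 2 without Clrn2-/- replicate 2), genes lower there from 0 to 1 (1 without wild-type 3), genes higher in the double mutants from 2 to 6 (2 without double mutant replicate 2), and genes lower there from 0 to 1 (0 without wild-type 3). The single mutants differed in 3 to 4 genes, the double mutants and Clrn1-/- mice in 2 to 4 (2 without Clrn1-/- replicate 1 or 2 or double mutant replicate 1 or 3), and the double mutants and Clrn2-/- mice in 1 to 4 (1 in each of 7 cases, including the loss of wild-type 1, each Clrn1-/- library, Clrn2-/- replicate 1 and double mutant replicates 1 and 2). The interaction gave 0 to 5 genes (5 without wild-type 3, namely Ccnb2, Cdc20, Cenpe, Mki67 and Top2a, and 0 without wild-type 1 or 2, Clrn1-/- replicate 1 or 2, Clrn2-/- replicate 1 or double mutant replicate 2).

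Directions that turned were all of uncalled log2 fold changes. Against wild-type, in Clrn1-/- mice, Cdk1 was at -0.0088 with unstranded counts and Ccnb1 at 0.19 with limma-voom and 0.024 with the replicate block; in Clrn2-/- mice, Top2a was at 0.060 and Ccnb1 at 0.048 with limma-voom; in the double mutants, Mki67 was at -0.012 with no filter and Ccnb1 at 0.071 with limma-voom. Leaving out 1 library gave ranges of -0.80 to 0.018, -0.61 to 0.21 and -0.36 to 0.47 for Mki67 in Clrn1-/-, Clrn2-/- and double mutant mice, of -0.57 to 0.19, -0.40 to 0.36 and -0.12 to 0.65 for Top2a, and of -0.45 to 0.53, -0.50 to 0.48 and -0.51 to 0.48 for Ccnb1. For Cdk1 they were -0.11 to 0.20 in Clrn1-/- and -0.17 to 0.12 in Clrn2-/- mice, and for Mcm2 -0.10 to 0.018 in Clrn2-/- mice. Scaling by library size alone moved the median of all genes by at most 0.04.

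At 10 counts in the lowest library, Bub1 is limited by counting error, as are Aurkb and Ccnb1. Each group holds 3 libraries, and the wild-type libraries spread most in these genes.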
